A study of Homo sapiens with 12 samples.

Results

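Cytotoxic granule genes encode the proteins that killer lymphocytes store in secretory granules and release onto a target cell, together with the death ligand FASLG. The 10 genes followed here were GZMA, GZMB, GZMK and GZMM, which encode granzymes, and PRF1, GNLY, NKG7, SRGN, CTSW and FASLG. They were taken by gene symbol from the deposited count table, where all 10 were found among 59050 gene names. The table came from bulk RNA sequencing of MyLa cells, an established line from cutaneous T cell lymphoma (CTCL), grown with human interleukin-2 at 20 ng/mL. The 4 groups of 3 libraries were cells given romidepsin at 3.2 nM, cells given afatinib dimaleate at 5.7 uM, cells given the combination of both at these doses, and cells given DMSO alone in the volume of the combination, each for 24 h. Romidepsin inhibits histone deacetylases, and afatinib inhibits kinases of the ERBB receptor family. All groups therefore share 1 cell line and the interleukin-2 in its medium. Whether the 3 libraries of a group are separate cultures is not stated in the labels. The p-values thus reflect the scatter among these libraries alone, which may be technical.

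In a cytotoxic granule, perforin opens pores in the membrane of the target cell and granzymes, a family of serine proteases, pass through and cut proteins inside it. Serglycin, the product of SRGN, is the proteoglycan on whose sugar chains granzymes and perforin are packed. These genes are typical of natural killer (NK) cells and CD8+ T cells, while SRGN is expressed more widely among blood cells. The series was made to study how romidepsin and afatinib act together in CTCL cells.

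Total counts per library were between 8972228 and 12696653, so 3 counts corresponded to 0.236 to 0.334 CPM, the unit of counts scaled to the size of the library. Of 10 T cell markers, CD3E, CD5, CD4 and CD8B had fewer than 10 counts in every library, while CD3D, CD3G, CD247, CD2, CD8A and TRAC were present. The summed T cell markers were at 109 to 121 CPM with romidepsin, 254 to 270 CPM with afatinib, 75.2 to 75.8 CPM with the combination and 323 to 366 CPM with DMSO. Of 8 NK cell markers, KLRF1 and FGFBP2 were at 0 in all libraries and FCGR3A, TYROBP and XCL1 were under 10 counts, and the sum of all 8 was between 1.67 and 3.03 CPM in every library. The other 3 moved in different directions under that sum. NCR1 had 4, 1 and 2 counts with romidepsin, 23, 17 and 21 with afatinib, 1, 7 and 0 with the combination and 26, 28 and 19 with DMSO. NCAM1 had 9, 6 and 10 counts with romidepsin, 3, 11 and 11 with afatinib, 17, 21 and 16 with the combination and 2, 3 and 0 with DMSO, and KLRD1 had 4 to 15 counts in each library with romidepsin, alone or combined, and 0 in the others. All 4 neutrophil granule proteases, ELANE, PRTN3, AZU1 and CTSG, were at 0. KRT5, a keratinocyte keratin, had at least 10 counts in 4 libraries, with 43 counts in combination replicate 1, 126 in the afatinib library numbered 3, and 59 and 94 in DMSO replicates 1 and 2, against at most 1 count in the other 8 libraries.

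Promoters of 6 of the 10 genes were found in a RefSeq table for GRCh38.p14, those of GZMA, GZMB, PRF1, GNLY, NKG7 and FASLG. Each covers 300 bases, from 250 before the annotated start of the gene to 50 after it. GZMK, GZMM, SRGN and CTSW had no entry. PRF1 and NKG7 are shown because both fell with romidepsin, and GZMA because its few counts stood in treated libraries alone, a choice made after the values were seen. Capitals mark matches, on either strand, to TGTGGT (the RUNX core), TTCNNNGAA (STAT), TGACTCA or TGAGTCA (AP-1) and TCACACC or GGTGTGA (T-box).
PRF1, chr10:70602692-70602991, minus strand: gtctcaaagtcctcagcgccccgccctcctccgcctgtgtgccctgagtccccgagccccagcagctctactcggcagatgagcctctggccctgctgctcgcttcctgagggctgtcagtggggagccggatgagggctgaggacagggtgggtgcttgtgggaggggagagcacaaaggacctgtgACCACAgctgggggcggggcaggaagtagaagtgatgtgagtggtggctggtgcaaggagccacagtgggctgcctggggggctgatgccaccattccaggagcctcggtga
NKG7, chr19:51372605-51372904, minus strand: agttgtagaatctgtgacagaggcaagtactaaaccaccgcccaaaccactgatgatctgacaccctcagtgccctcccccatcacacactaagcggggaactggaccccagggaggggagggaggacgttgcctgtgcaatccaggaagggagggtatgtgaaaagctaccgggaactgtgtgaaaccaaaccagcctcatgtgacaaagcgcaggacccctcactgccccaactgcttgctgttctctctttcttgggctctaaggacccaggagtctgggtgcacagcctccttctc
GZMA, chr5:55102396-55102695, plus strand: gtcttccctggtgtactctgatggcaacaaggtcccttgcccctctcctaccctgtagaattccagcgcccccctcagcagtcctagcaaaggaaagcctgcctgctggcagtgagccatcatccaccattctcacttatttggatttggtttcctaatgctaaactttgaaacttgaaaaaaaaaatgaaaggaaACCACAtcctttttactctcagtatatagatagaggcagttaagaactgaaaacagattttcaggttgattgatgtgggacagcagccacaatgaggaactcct
PRF1 and GZMA each held 1 RUNX core, ACCACA on the printed strand, with its first letter at position -62 in PRF1 and -54 in GZMA, counted from 0 at the gene's start. NKG7 held none of the 4 motifs in this window. Of the promoters not printed, GZMB held 2 RUNX cores and 1 AP-1 match, GNLY held 1 RUNX core and 1 T-box match, and FASLG held none. Among all 35116 promoters in the table, 13.1% held a RUNX core, 7.66% a STAT match, 4.95% an AP-1 match and 3.45% a T-box match. The ETS core GGAA, left in lower case, was in all 6 promoters and in 95.5% of all promoters. The GC content was 65.7% in PRF1, 56% in NKG7 and 45% in GZMA, against a median of 58.7% over all promoters. A match describes letters in the reference and not a bound site.

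The genes split by abundance into 5 that could be tested and 5 that were nearly silent. SRGN, GZMM, PRF1, NKG7 and CTSW passed the filter on low counts, with at least 16 counts in every library. GZMA, GZMB, GZMK, GNLY and FASLG did not pass it, and their highest count in any library was 10. The 10 genes together made up 101 to 104 CPM of all counts with romidepsin, 99.7 to 105 with afatinib, 123.4 to 134 with the combination and 81.9 to 90.1 with DMSO. On these unscaled library totals, the sum was higher in every treated library than in every DMSO library. SRGN made up 67.4 to 69.2% of these counts with romidepsin, 46.5 to 53.1% with afatinib, 61.9 to 68.9% with the combination and 38.7 to 43.1% with DMSO. In bulk samples, fewer cells of a type and less RNA per cell cannot be told apart.

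The clearest changes were in SRGN and CTSW, which rose, and in PRF1, which fell. With romidepsin, 2 of the 5 tested genes rose (SRGN and CTSW) and 2 fell (PRF1 and NKG7) at an adjusted p below 0.05, where 62.6% of all 16208 tested genes were called, 31.1% higher and 31.5% lower. With afatinib, 1 rose (SRGN) and 0 fell, where 45.4% of all tested genes were called, 22% higher and 23.3% lower. With the combination, 2 rose (SRGN and CTSW) and 1 fell (PRF1), where 74.3% of all tested genes were called, 37.2% higher and 37.1% lower. With so many genes called, these counts are near the background, and the direction and size in each gene carry the description. The median log2 fold change of the 5 genes was -0.24 with romidepsin, -0.083 with afatinib and 0.073 with the combination, against medians between -0.0050 and 0.0016 over all tested genes.

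**Figure D1:**
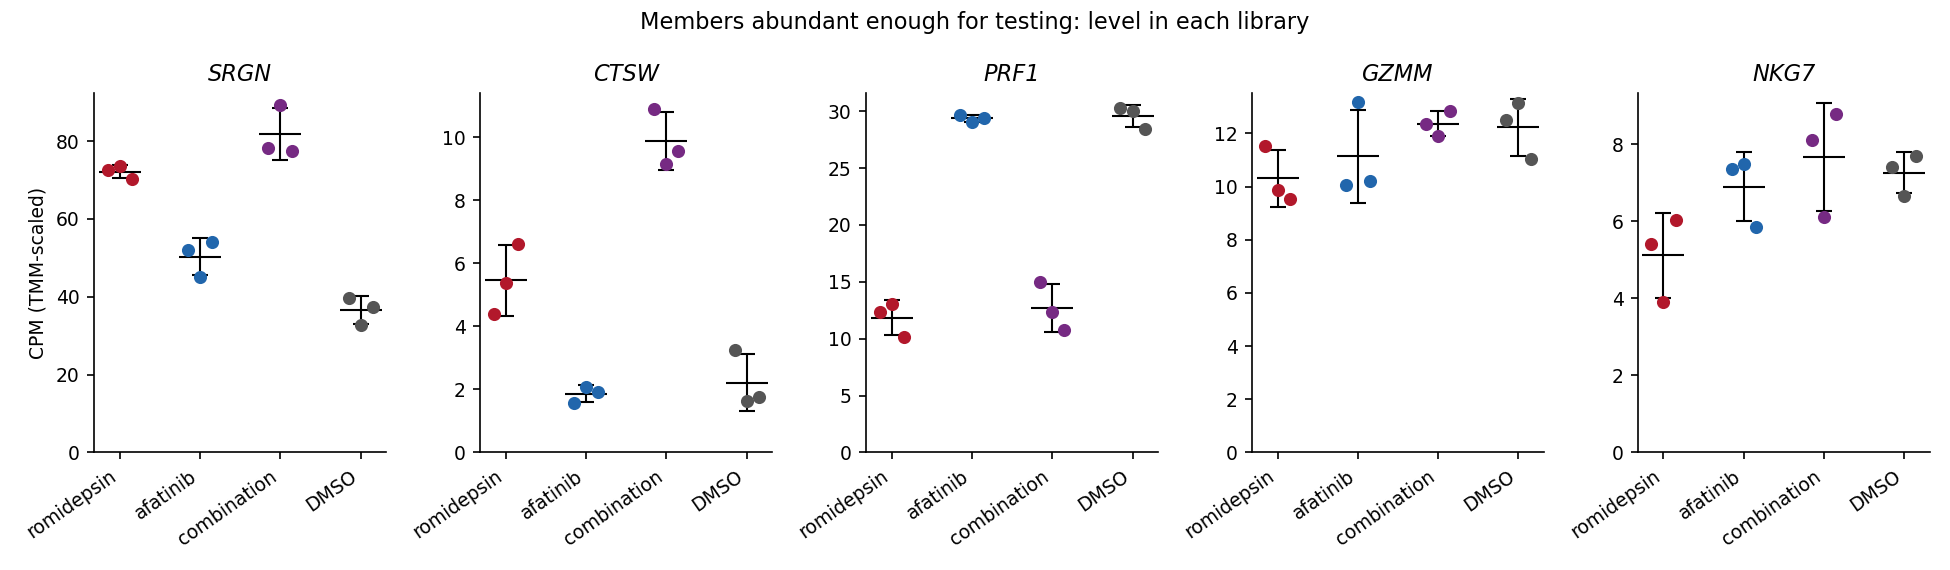
Levels of the 5 tested genes in CPM (TMM-scaled), 1 panel per gene with its own axis from 0. Points are the 3 libraries of each treatment group, and the horizontal bars are group means with SD; SRGN and CTSW are highest in the combination libraries, and PRF1 is at 10.1 to 15 CPM in all libraries with romidepsin, alone or combined, and at 28.5 to 30.3 CPM in the others.

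SRGN, the serglycin gene at chr10:69088103-69104805 on the plus strand (GRCh38), had 72.5, 73.6 and 70.3 CPM in the 3 romidepsin libraries, 51.9, 45.1 and 54.0 CPM in the afatinib libraries, 78.3, 89.4 and 77.5 CPM in the combination libraries and 39.7, 32.8 and 37.2 CPM in the DMSO libraries. The 4 groups did not overlap, and the order was combination, romidepsin, afatinib and DMSO, from high to low. Over DMSO, SRGN rose 1.96-fold with romidepsin (log2 fold change 0.97 ± 0.08 SE, adjusted p = 1.55e-14), 1.37-fold with afatinib (0.46 ± 0.09, adjusted p = 1.48e-05) and 2.23-fold with the combination (1.16 ± 0.08, adjusted p = 1.25e-17). It was the only one of the 5 genes to pass the test under all 3 treatments. The shares of all tested genes that did so, or whose 4 groups did not overlap, were not computed. Its rank by TPM among the 16208 tested genes was 600 with romidepsin, 976 with afatinib, 462 with the combination and 1597 with DMSO. Serglycin is also made by myeloid cells, and the sum of 5 myeloid markers was 28.3 to 36 CPM with romidepsin, 5.39 to 6.31 with afatinib, 16.9 to 19.6 with the combination and 6.73 to 7.22 with DMSO. That sum came mainly from CSF1R. CD14 had 39, 33 and 31 counts in the combination libraries and 2 to 4 in every other library, while LYZ and MPO had at most 3 counts in any library. The part of other cells in the SRGN result was not tested.

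PRF1, which encodes perforin and lies at chr10:70597348-70602759 on the minus strand, showed the opposite direction. It had 12.4, 13.1 and 10.1 CPM with romidepsin, 29.7, 29.1 and 29.4 CPM with afatinib, 15, 12.4 and 10.8 CPM with the combination, and 30.3, 30.0 and 28.5 CPM with DMSO. The romidepsin and combination libraries all lay below the afatinib and DMSO libraries, with a gap of more than the spread within any group. PRF1 was 2.51-fold lower with romidepsin than with DMSO (log2 fold change -1.33 ± 0.12 SE, adjusted p = 9.24e-14) and 2.34-fold lower with the combination (-1.23 ± 0.12, adjusted p = 2.62e-13). With afatinib alone its log2 fold change was -0.0095 with a 95% interval of -0.22 to 0.20 (adjusted p = 0.955). The summed T cell markers given above were also lowest in the romidepsin and combination libraries. CD2, CD3D, CD3G and CD247 each had fewer counts in these libraries than in every afatinib or DMSO library. TRAC had 147, 102 and 125 counts with romidepsin and 77, 93 and 108 with the combination. With afatinib TRAC had 117, 115 and 127 counts, and with DMSO 262, 197 and 200. CD8A was not called with romidepsin (-0.17, edgeR adjusted p = 0.353) or the combination (-0.23, edgeR adjusted p = 0.166). The part of these markers in the PRF1 result was not tested. PRF1 took 9.74 to 12.3% of the counts of the 10 genes with romidepsin, 28.9 to 30.0% with afatinib, 9.0 to 11.8% with the combination and 32.4 to 35.4% with DMSO.

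CTSW encodes cathepsin W, a cysteine protease of the papain family found in NK cells and CD8+ T cells, and lies at chr11:65879837-65883741 on the plus strand. It had 4.38, 5.38 and 6.61 CPM with romidepsin, 1.57, 2.08 and 1.93 CPM with afatinib, 10.9, 9.17 and 9.55 CPM with the combination, and 3.25, 1.62 and 1.75 CPM with DMSO. The combination libraries lay above all others and the romidepsin libraries above those with afatinib alone and DMSO, which overlapped. CTSW rose 2.44-fold over DMSO with romidepsin (log2 fold change 1.28 ± 0.24 SE, adjusted p = 9.9e-06) and 4.38-fold with the combination (2.13 ± 0.22, adjusted p = 6.25e-12). With afatinib alone the log2 fold change was -0.27, with a 95% interval of -0.84 to 0.30 (adjusted p = 0.483). These values rest on few reads, since the DMSO libraries held 39, 16 and 20 counts.

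NKG7 encodes a membrane protein of the granule that takes part in its release, and lies at chr19:51371606-51372701 on the minus strand. It had 5.41, 3.90 and 6.04 CPM with romidepsin, 7.37, 7.48 and 5.86 CPM with afatinib, 8.11, 6.11 and 8.79 CPM with the combination, and 7.42, 6.66 and 7.71 CPM with DMSO. The romidepsin libraries lay below the DMSO and combination libraries, and the highest romidepsin value passed the lowest afatinib value. NKG7 was 1.40-fold lower with romidepsin than with DMSO (log2 fold change -0.49 ± 0.19 SE, adjusted p = 0.0251). Leaving out romidepsin replicate 2 ended the call (-0.34, adjusted p = 0.144), as did leaving out DMSO replicate 1 (-0.44, adjusted p = 0.0755) or 3 (-0.44, adjusted p = 0.0694). Against DMSO the log2 fold change of NKG7 was -0.083 with afatinib (95% interval -0.44 to 0.28) and 0.073 with the combination (-0.28 to 0.42).

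GZMM, at chr19:544034-549924 on the plus strand, encodes granzyme M, a serine protease that prefers to cut after methionine or leucine, and was the only granzyme with more than a few counts. It had 11.5, 9.85 and 9.54 CPM with romidepsin, 10.04, 13.2 and 10.2 CPM with afatinib, 12.4, 11.9 and 12.8 CPM with the combination, and 12.5, 13.1 and 11.04 CPM with DMSO. Each treated group overlapped the DMSO group. GZMM passed the test under none of the 3 treatments in edgeR, and its unadjusted p was 0.103 with romidepsin, 0.346 with afatinib and 0.892 with the combination. The 95% intervals of its log2 fold change over DMSO were -0.53 to 0.04 with romidepsin, -0.42 to 0.14 with afatinib and -0.25 to 0.29 with the combination.

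**Figure D2:**
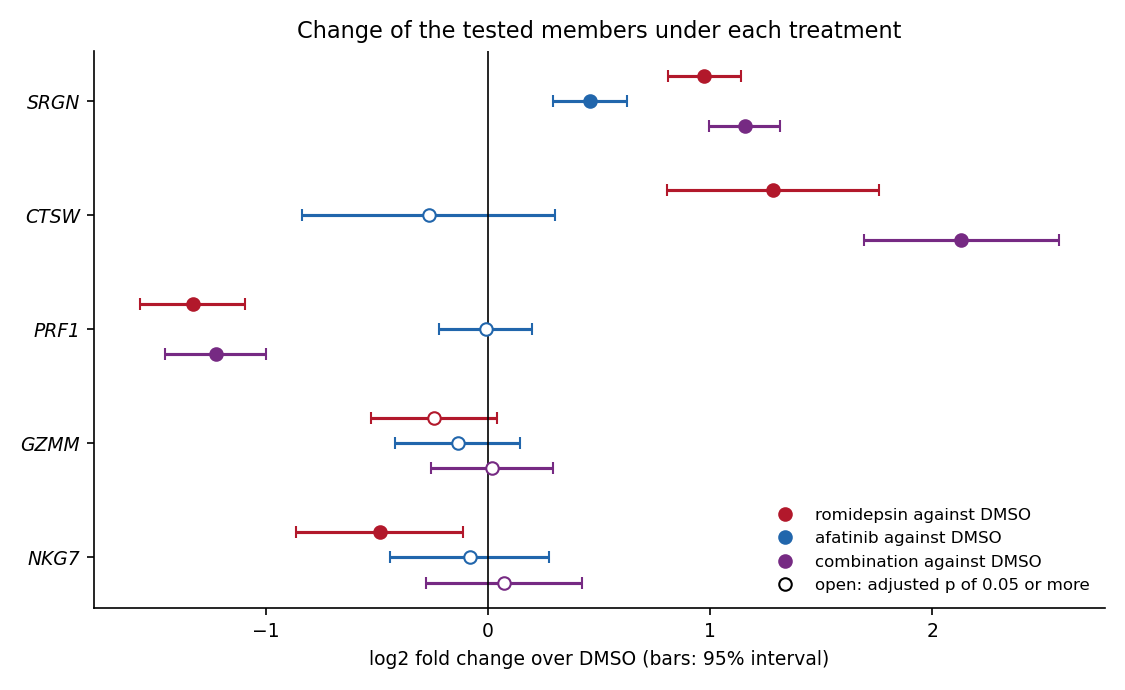
log2 fold changes of the 5 tested genes over DMSO with romidepsin, afatinib or the combination, with bars for the 95% interval and open points where the adjusted p was 0.05 or more. SRGN is to the right of 0 under all 3 treatments, CTSW is farthest to the right at 2.13 with the combination, and PRF1 is at -1.33 with romidepsin and -1.23 with the combination.

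Without the 4 libraries holding KRT5 counts, 1 DMSO library is left, replicate 3, which is assumed to vary like the rest. Its counts differed from those of DMSO replicates 1 and 2 by a chi-square per degree of freedom of 6.61 and 8.28. These were the highest values among the 12 pairs of libraries of the same group. In this fit the called changes of SRGN, PRF1 and CTSW over DMSO kept their directions. With romidepsin their log2 fold changes were then 1.00 in SRGN, -1.23 in PRF1 and 1.68 in CTSW, and with the combination 1.24 in SRGN, -1.23 in PRF1 and 2.48 in CTSW. SRGN had 0.42 with afatinib (adjusted p = 0.0144), and NKG7 with romidepsin was not called (-0.52, adjusted p = 0.102).

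The other 5 genes were at the edge of detection. GNLY, which encodes the membrane-lysing protein granulysin, had 10, 1 and 10 counts in the romidepsin libraries, 2, 1 and 4 in the afatinib libraries, 10, 9 and 2 in the combination libraries and 3, 4 and 2 in the DMSO libraries, and the groups overlapped. GZMA, the gene of a granzyme that cuts after basic residues, had 4, 0 and 2 counts with romidepsin, 2, 0 and 0 with afatinib, 7, 2 and 1 with the combination and 0 in each DMSO library. Summed over each group, GZMA had 6 counts with romidepsin, 2 with afatinib, 10 with the combination and 0 with DMSO, which allows up to 0.0865 CPM over the DMSO group. Taking 3 counts over the DMSO group as the floor, GZMA was at least 2.06-fold higher with romidepsin and at least 3.2-fold higher with the combination, and floors cover counting error only. Both bounds rest on 1 library, since romidepsin replicate 1 held 4 of the 6 counts and combination replicate 1 held 7 of the 10. Without them 2 and 3 counts are left, at or below the floor, and no fold can be given. In a fit without the filter, GZMA passed with the combination (adjusted p = 0.0223) and not with romidepsin (adjusted p = 0.0804). GZMB, the gene of the granzyme that cuts after aspartate, had 2, 4 and 3 counts with romidepsin, 2, 0 and 0 with afatinib, 3, 0 and 0 with the combination, and 2, 1 and 1 with DMSO. GZMK, another granzyme gene, had 1 count in combination replicate 1 and 0 in the other 11 libraries. FASLG, which encodes the Fas ligand, had 0 counts in all 12 libraries, which allows up to 0.0831 to 0.0912 CPM per group. Without the filter, GNLY, GZMB and GZMK passed in no comparison with DMSO (adjusted p of at least 0.298).

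**Figure D3:**
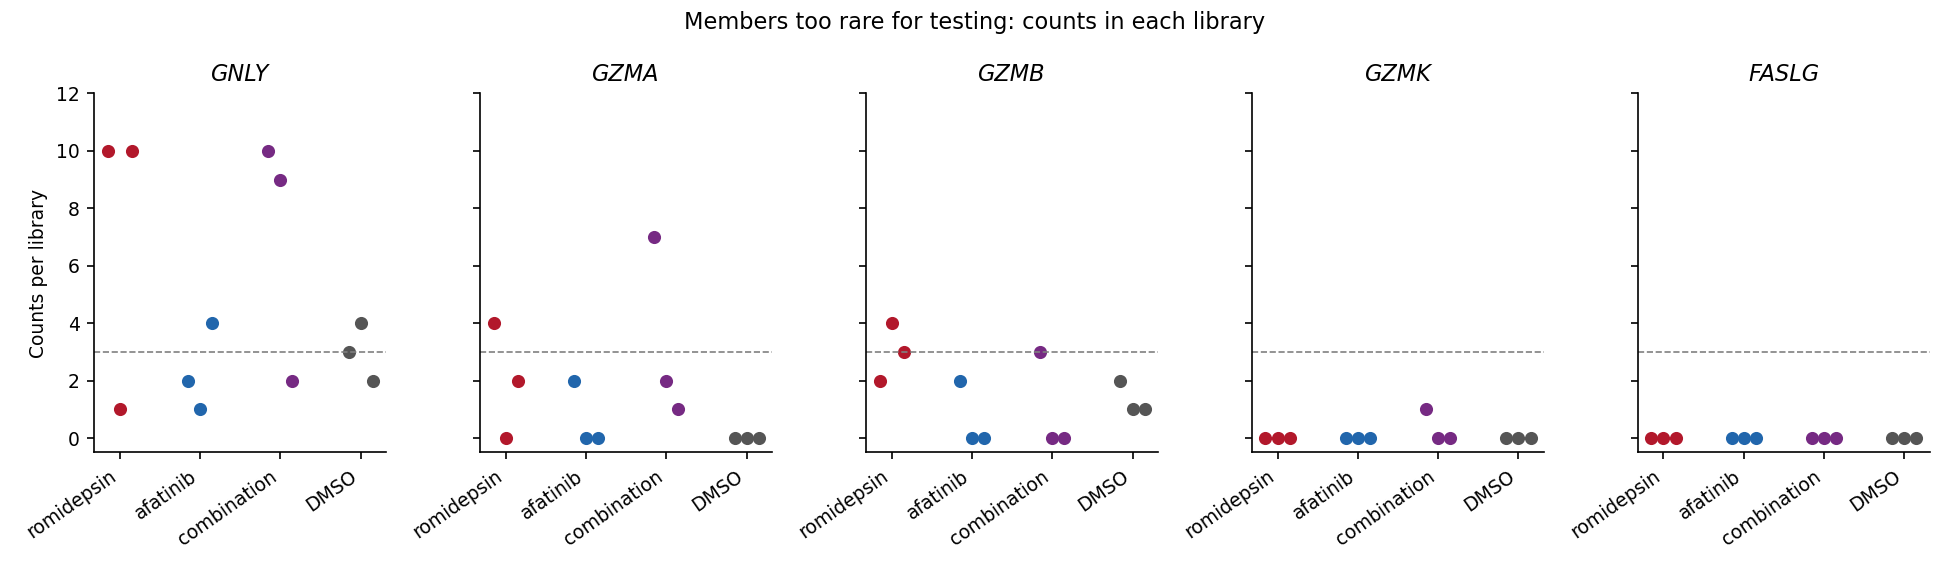
Raw counts per library of the 5 genes left out by the filter, 1 panel per gene with the 4 treatment groups on the x axis and a dashed line at 3 counts. GNLY reaches 10 counts in romidepsin and combination libraries, GZMA is at 0 in the 3 DMSO libraries, and FASLG is at 0 in all 12.

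Levels of different genes were compared as TPM, a level corrected for the exonic length of each gene and for depth. SRGN was the highest of the 5 in every group, with a mean of 156 TPM with romidepsin, 124 with afatinib, 196 with the combination and 78.1 with DMSO. GZMM came next in every group, with means of 28.8, 35.2 and 38.2 TPM with romidepsin, afatinib and the combination and 33.7 TPM with DMSO. PRF1 had means of 12.4 TPM with romidepsin, 34.8 with afatinib, 14.7 with the combination and 30.6 with DMSO. In the afatinib and DMSO groups its libraries overlapped those of GZMM, so these neighbours in the order did not differ beyond their spread. NKG7 averaged 14.6 TPM with romidepsin, 22.4 with afatinib, 24.3 with the combination and 20.5 with DMSO. CTSW averaged 8.49 TPM with romidepsin, 3.28 with afatinib, 17 with the combination and 3.40 with DMSO, and was the lowest in all groups except the combination, where its libraries (15.6 to 18.8 TPM) overlapped those of PRF1 (12.6 to 17.3 TPM). NKG7 and PRF1 overlapped with romidepsin, at 11.4 to 16.9 and 10.3 to 13.9 TPM.

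**Figure D4:**
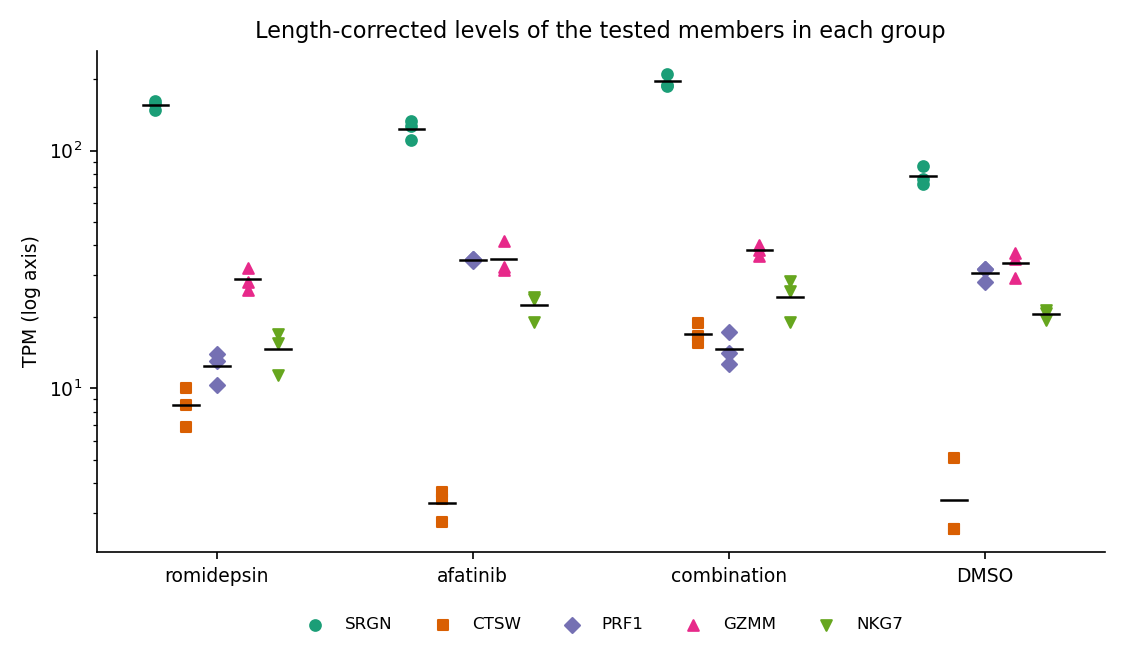
Length-corrected levels in TPM (log axis) of the 5 tested genes, with 1 point per library in each of the 4 groups. SRGN is on top in every group, while PRF1 shares its range with GZMM in the afatinib and DMSO groups and with CTSW in the combination group.

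The combination was next compared with each single drug. Against romidepsin it was higher in 3 of the 5 genes (CTSW, NKG7 and SRGN) and lower in 0, where 54.3% of all tested genes were called, 25.1% higher and 29.2% lower. CTSW averaged 9.87 ± 0.915 CPM with the combination and 5.46 ± 1.11 CPM with romidepsin (SD, n = 3 each), a log2 difference of 0.85 in edgeR (SE 0.20, adjusted p = 0.00026). NKG7 averaged 7.67 ± 1.39 CPM with the combination and 5.11 ± 1.10 CPM with romidepsin (SD, n = 3 each; edgeR log2 difference 0.56, adjusted p = 0.0107), a call lost without romidepsin replicate 2 (0.41, adjusted p = 0.086) or combination replicate 3 (0.44, adjusted p = 0.081). SRGN differed least, by a log2 value of 0.18 (SE 0.08, adjusted p = 0.0428), and lost its call without any 1 of the 3 romidepsin libraries (adjusted p = 0.0654 to 0.161), combination replicate 2 (0.297), afatinib replicate 2 (0.0513) or DMSO replicate 3 (0.0539), and also without the filter on low counts (0.0595). Between the combination and romidepsin PRF1 differed by a log2 value of 0.10, with a 95% interval of -0.15 to 0.36 (adjusted p = 0.526). GZMM lay higher in all 3 combination libraries than in all 3 romidepsin libraries, but its difference of 0.26 did not pass the test (adjusted p = 0.121), and passed only with scaling by library size (0.35, adjusted p = 0.0361).

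Against afatinib, the combination was higher in 2 genes (CTSW and SRGN) and lower in 1 (PRF1), where 69.2% of all tested genes were called, 33.4% higher and 35.8% lower. The log2 difference was 2.40 in CTSW (SE 0.23, adjusted p = 5.15e-13), 0.70 in SRGN (SE 0.08, adjusted p = 6.85e-11) and -1.22 in PRF1 (SE 0.12, adjusted p = 3.99e-13). Romidepsin against afatinib gave the same 3 calls, 2 higher and 1 lower, where 64.6% of all tested genes were called, 32.2% higher and 32.4% lower, with log2 differences of 1.55 in CTSW, 0.52 in SRGN and -1.32 in PRF1. NKG7 and GZMM were not called in either of these comparisons.

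The interaction, the log2 change with the combination minus the sum of the changes with the single drugs, asks whether both drugs together did other than add on the log2 scale. It passed in 1 of the 5 genes, CTSW, where 30.2% of all tested genes were called, 11.7% higher and 18.5% lower. In CTSW it was 1.11 ± 0.35 SE (adjusted p = 0.0122), on top of 1.28 with romidepsin and -0.27 with afatinib. The call was lost without DMSO replicate 1, the DMSO library with the most CTSW counts (0.71, adjusted p = 0.174), and without the 4 libraries holding KRT5 counts (0.71, adjusted p = 0.36). The interaction was 0.64 in NKG7 (adjusted p = 0.0588), -0.28 in SRGN (adjusted p = 0.0618), 0.40 in GZMM (adjusted p = 0.138) and 0.11 in PRF1 (95% interval -0.22 to 0.44, adjusted p = 0.667).

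Genes lying next to the members were looked at, since the counting used no strand. By span, genes on the opposite strand overlapped GZMB by 3314 bases, GZMK by 10318, GNLY by 995 and FASLG by 7774. These genes had at most 3 counts in any library, and their effect on the counts of the members was not tested. CTSW overlaps FIBP on the opposite strand by 1 base, and FIBP had a log2 fold change over DMSO of 0.21 with romidepsin (adjusted p = 0.0191) and -0.16 with the combination (adjusted p = 0.0625). EFEMP2, a matrix protein gene 6244 bases from CTSW, averaged 10.8 CPM with romidepsin, 5.84 with afatinib, 20.2 with the combination and 7.26 with DMSO, and rose by a log2 value of 0.59 with romidepsin (adjusted p = 0.00232) and 1.48 with the combination (adjusted p = 9.31e-12). CCDC85B, 6370 bases from CTSW on the other side, did not rise. Its log2 fold change was -0.092 with romidepsin, not past the test, and -0.26 with the combination, past the test. VPS26A, 18706 bases from SRGN, rose by log2 values of 0.75 with romidepsin, 0.23 with afatinib and 0.82 with the combination. KIF1BP, 44558 bases from SRGN on the other side, rose by 0.54 with romidepsin and 0.21 with the combination. With afatinib KIF1BP had 0.016 and was not called. CLDND2, 2602 bases from NKG7, fell by 0.63 on the log2 scale with romidepsin (adjusted p = 0.00215). SIGLEC10, 37318 bases from NKG7, had log2 fold changes of -0.79 with romidepsin, 1.14 with afatinib and -1.07 with the combination, each past the test. CDC20B, 2742 bases from GZMA on the opposite strand, averaged 9.21 CPM with romidepsin, 0.920 with afatinib, 13.8 with the combination and 0.700 with DMSO, and rose by log2 values of 3.71 with romidepsin and 4.30 with the combination. Around GZMM, which was called under no treatment, CDC34, 1941 bases away, had log2 fold changes over DMSO of 0.30 with romidepsin, -0.23 with afatinib and 0.52 with the combination, each past the test. BSG, 21352 bases from GZMM, rose by 0.79 with the combination. The next tested genes around PRF1 were EIF4EBP2, 168729 bases away, which rose by a log2 value of 0.76 with romidepsin, and SGPL1, 213201 bases away, which fell by 0.42.

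Proteases with genes close to the granzymes were mostly silent. Near GZMB on chromosome 14, GZMH had 1 count over all 12 libraries and CTSG had 0, while CMA1, the mast cell chymase gene, had 10 counts with romidepsin, 0 with afatinib, 3 with the combination and 0 with DMSO. Near GZMM on chromosome 19, AZU1, PRTN3 and ELANE were at 0, and CFD, the complement factor D gene, had 382, 168 and 480 counts summed over the romidepsin, afatinib and combination libraries and 123 over the DMSO libraries. GZMK and GZMA lie 68075 bases apart on chromosome 5.

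The members did not share 1 pattern across the 12 libraries. Likeness was measured as the root mean square difference of log2 CPM after centring each gene on its mean, where 0 would be the same pattern. Among the 4 members with a mean of at least 5 CPM, GZMM and NKG7 were closest (0.24) and PRF1 and SRGN farthest apart (1.07). The measure is also small between genes that vary little. The SD of log2 CPM over the libraries was 0.17 in GZMM, 0.31 in NKG7, 0.48 in SRGN and 0.67 in PRF1. The distance of GZMM to NKG7 was thus larger than the SD of GZMM itself. Out of 10771 genes searched, the nearest to SRGN were PKP4 (0.080), FAM102B (0.086) and CD59 (0.092). The nearest to PRF1 were RNASEH1-AS1 (0.11), ARHGAP31 (0.11) and NFYC (0.11), the nearest to GZMM were LRPAP1, RXYLT1 and PCNX3 (0.095 to 0.096), and the nearest to NKG7 was ARHGAP33 (0.14).

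Genes that mature, accompany or carry granule proteins were then counted by list. Each count is to be read against the shares over all tested genes, which were 31.1% higher and 31.5% lower with romidepsin, 22% higher and 23.3% lower with afatinib, and 37.2% higher and 37.1% lower with the combination. Of 21 granule companions and maturation genes, 10 were tested: 5 rose and 1 fell with romidepsin, 6 rose and 2 fell with afatinib, and 7 rose and 1 fell with the combination. Their median log2 fold change was 0.20 with romidepsin, 0.20 with afatinib and 0.45 with the combination. CTSC, the protease that activates granzymes by removing their first residues, averaged 270 ± 13.2 CPM with romidepsin, 201 ± 6.80 with afatinib, 228 ± 5.43 with the combination and 180.5 ± 3.36 with DMSO (SD, n = 3 each), a log2 rise of 0.58 with romidepsin. CALR, a chaperone of the endoplasmic reticulum also found in cytotoxic granules, rose by 0.79 with romidepsin and 1.08 with the combination and fell by 0.64 with afatinib on the log2 scale. The lysosomal membrane gene LAMP2 rose under all 3 treatments, by 0.59 with romidepsin, 0.50 with afatinib and 1.14 with the combination, and CD63, another granule membrane gene, fell by 0.85 with the combination. IGF2R, a receptor that sorts lysosomal enzymes, rose by 0.83 with romidepsin and 0.78 with the combination, and the protease gene CTSD rose by 1.07 with afatinib. The chemokine genes CCL4 and XCL2 were at 0, and CCL5 and XCL1 had at most 1 count in any library.

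Of 24 genes for granule transport and exocytosis, 22 were tested. With romidepsin 10 rose and 10 fell, with afatinib 8 rose and 4 fell, and with the combination 8 rose and 11 fell, with median log2 fold changes of 0.18, 0.077 and -0.24. UNC13D, which primes granules for fusion and is mutated in a familial immune disorder with failed granule release, averaged 93.6 ± 4.31 CPM with romidepsin, 243 ± 7.0 with afatinib, 48.4 ± 2.84 with the combination and 323 ± 15.5 with DMSO (SD, n = 3 each). It fell under each treatment, with log2 fold changes of -1.79 with romidepsin, -0.41 with afatinib and -2.74 with the combination. The membrane fusion genes STX3 and STX7 moved the other way and rose, STX3 by log2 values of 2.84 with romidepsin and 3.27 with the combination and STX7 by 2.53 and 2.44. SYTL2, a partner of the vesicle protein RAB27A, rose by 2.07 with romidepsin and 1.82 with the combination. The RAB27A gene itself fell, with log2 fold changes of -0.56 with romidepsin and -1.50 with the combination, both past the test. With afatinib STX11, a syntaxin of the same release step as UNC13D, rose by 0.82. Its log2 fold change was 0.30 with romidepsin and -0.23 with the combination, both past the test.

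Of 12 inhibitors of granzymes and cathepsins, 5 were tested, and 4 rose and 1 fell with romidepsin, 3 rose with afatinib, and 4 rose with the combination. Their median log2 fold change was 0.50 with romidepsin, 0.50 with afatinib and 0.55 with the combination. SERPINB9, the inhibitor of granzyme B that shields killer cells from their own enzyme, averaged 9.36 ± 1.07 CPM with romidepsin, 6.06 ± 0.803 with afatinib, 9.11 ± 0.595 with the combination and 6.60 ± 1.42 with DMSO (SD, n = 3 each), a log2 rise of 0.50 with romidepsin (edgeR adjusted p = 0.0106) and 0.46 with the combination (edgeR adjusted p = 0.0142). SERPINB1, an inhibitor of granule serine proteases, rose by 1.79 with romidepsin and 0.55 with the combination. SERPINB8 fell by 0.79 with romidepsin and rose by 1.19 with afatinib. The cystatins CSTA and CSTB, inhibitors of cysteine cathepsins, rose under each treatment, by log2 values between 0.35 and 0.78.

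Of 19 genes that build the sugar chains of proteoglycans such as serglycin, 14 were tested. With romidepsin 4 rose and 6 fell, with afatinib 5 rose and 4 fell, and with the combination 7 rose and 6 fell, with median log2 fold changes of -0.13, 0.11 and 0.17. B3GALT6, a galactosyltransferase of the linker that joins the chain to the protein, fell, with log2 fold changes of -0.74 with romidepsin, -0.51 with afatinib and -2.18 with the combination. CSGALNACT2, which starts chondroitin chains, rose by 0.65, 0.49 and 1.41 in the same order, and CHSY1, which extends them, rose by 0.96 with romidepsin.

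Of 26 transcription factors known from cytotoxic lymphocytes, 21 were tested, and 11 rose and 6 fell with romidepsin, 4 rose and 9 fell with afatinib, and 8 rose and 9 fell with the combination, with median log2 fold changes of 0.25, -0.095 and -0.11. ID2 rose by 2.19 with romidepsin, IRF4 by 1.59 and NFIL3 by 1.55, while MYB fell by 2.02. With the combination MYB (-2.41), IKZF1 (-2.21), STAT5A (-1.90) and LEF1 (-1.72) fell most of the list's genes with a mean of at least 5 CPM. IKZF1 (-1.47), STAT5A (-1.33) and LEF1 (-1.35) also fell with romidepsin, each past the test. IRF4 (1.66), NFIL3 (1.60) and ID2 (1.53) also rose with the combination, each past the test. STAT5A relays the signal of interleukin-2, which was in the medium of all groups. RUNX3, a factor known to act at the perforin gene in mouse killer T cells and named here after its values were seen, averaged 348 ± 8.71 CPM with romidepsin, 328 ± 4.87 with afatinib, 360 ± 10.9 with the combination and 350 ± 15.1 with DMSO (SD, n = 3 each), and passed the test under none of the treatments. RUNX1, another RUNX gene on the list, rose by 0.32 with romidepsin and 0.38 with the combination, both past the test. TBX21, the gene of the factor T-bet, had at most 6 counts in any library. EOMES, also on the list, averaged 1.49 to 2.52 CPM per group and passed the test under none of the treatments. RUNX1, TBX21 and EOMES were likewise named after their values were seen.

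Of 24 surface genes of cytotoxic lymphocytes, 8 were tested, and 2 rose and 3 fell with romidepsin, 2 rose and 2 fell with afatinib, and 2 rose and 3 fell with the combination. Their median log2 fold change was 0.14 with romidepsin, -0.25 with afatinib and 0.056 with the combination. TIGIT, an inhibitory receptor, fell, with log2 fold changes of -2.68 with romidepsin, -0.20 with afatinib and -3.15 with the combination, and averaged 82.0 ± 3.00, 458 ± 9.10 and 59.1 ± 2.00 CPM in these groups against 527 ± 10.5 CPM with DMSO (SD, n = 3 each). IL2RB, the interleukin-2 receptor beta chain gene, had log2 fold changes of -0.19, -0.61 and -1.03 in the same order, each past the test, and CD8A rose by 0.74 with afatinib.

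All 23 death ligands, death receptors and granzyme substrates on the last list were tested. With romidepsin 6 rose and 13 fell, with afatinib 4 rose and 12 fell, and with the combination 5 rose and 14 fell, with median log2 fold changes of -0.40, -0.23 and -0.75. GSDME, a gasdermin that granzyme B can cut to open pores, fell under each treatment, with log2 fold changes of -3.36 with romidepsin, -2.75 with afatinib and -3.30 with the combination. FAS, the receptor of the Fas ligand, averaged 18.8 ± 2.90 CPM with romidepsin, 209 ± 3.81 with afatinib, 15.9 ± 3.04 with the combination and 137 ± 5.61 with DMSO (SD, n = 3 each). Its log2 fold change was -2.88 with romidepsin and -3.11 with the combination, and 0.61 with afatinib, each past the test. CFLAR, an inhibitor of death receptor signalling, fell, with log2 fold changes of -1.91 with romidepsin and -2.17 with the combination, and LMNB1, a nuclear lamin, by -1.47 with romidepsin. LTA, the lymphotoxin alpha gene, fell, with log2 fold changes of -1.72 with afatinib and -3.11 with the combination.

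**Figure D5:**
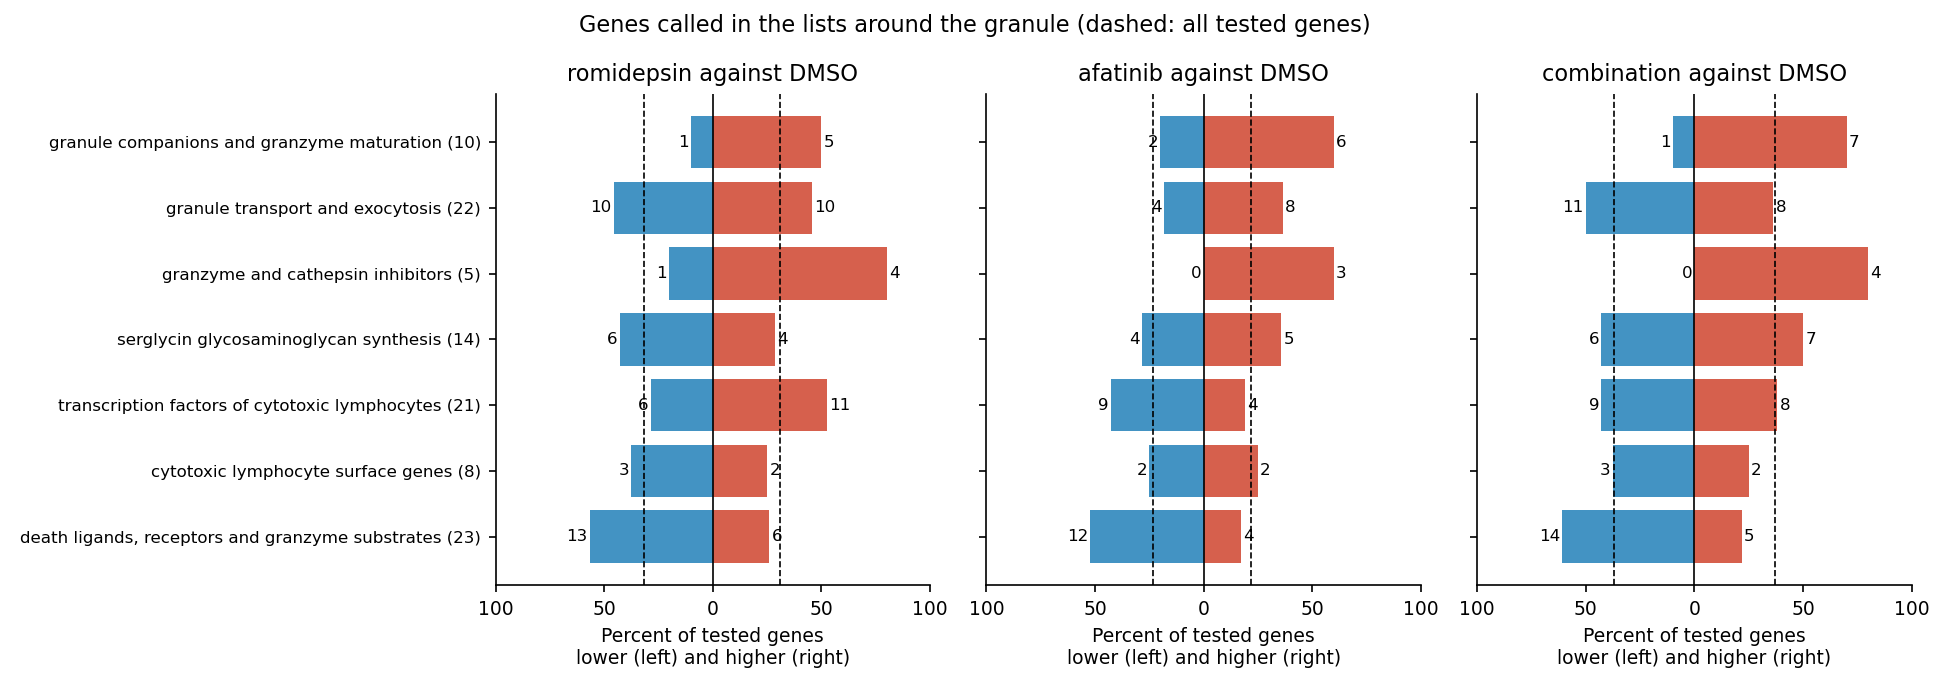
Share of the tested genes of each list that were called lower (to the left of 0) or higher (to the right) over DMSO, in percent, with 1 panel per treatment, the number tested in brackets and dashed lines at the shares over all 16208 tested genes. The bar for lower genes in the list of death ligands, receptors and granzyme substrates passes the dashed line in each panel, with 13 of 23 genes for romidepsin, 12 of 23 for afatinib and 14 of 23 for the combination. In the same order of treatments, so do the lower bars of serglycin glycosaminoglycan synthesis (6, 4 and 6 of 14) and surface genes (3, 2 and 3 of 8). Those of the surface genes end close to the line in each panel, as do those of glycosaminoglycan synthesis with afatinib and the combination. The higher bars pass their line in each panel for granule companions (5, 6 and 7 of 10) and inhibitors (4, 3 and 4 of 5).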

How the data were processed

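Bulk RNA from MyLa cells was sequenced in 12 libraries, 4 groups of 3. The authors deposited unscaled counts (read pairs assigned to each gene symbol). They used STAR 2.7.9a and GRCh38.p12, with DESeq2 1.38.1 also named, per the submitters' processing notes, and featureCounts 2.0.0 with GENCODE 31, unstranded and with multi-mapped reads left out, per the file headers. Reads that GZMB shares with the related GZMH would therefore be lost. A further deposited table, named as normalized counts, was not used, since its values followed the counts poorly (Spearman correlation 0.0217 to 0.0492 over 13302 genes).

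The 10 genes and the lists were chosen with earlier results of these data known. Genes were filtered with filterByExpr, scaled by TMM and tested with edgeR 4.0.16 (R 4.3.3; glmQLFit with robust, glmQLFTest) on 4 group means over all 12 libraries, two-sided, with Benjamini-Hochberg adjustment over 16208 genes. The biological coefficient of variation was 6.13%. The standard error is the log2 fold change divided by the square root of F, and intervals are 1.96 SE. CPM of single genes use TMM-scaled totals. CPM of the marker sums, of the 10 genes together and of the floors use unscaled library totals. TPM use the exonic length and no TMM scaling. No 2 libraries of the same group agreed within sampling noise (chi-square per degree of freedom 2.05 to 8.28 in 12 pairs). Named list genes were, per list and treatment, up to 4 called genes with the largest change and a mean of at least 5 CPM, and examples were taken from these. Some genes that meet this rule are not reported here. Also named were genes from the nearest tested ones beside a member and from the 3 most like it in pattern. Not all of these are reported here. Positions come from the count table. Alternatives were other scalings, filters and tests (DESeq2 1.42.0), the replicate block, and fits without 1 library or without those with at least 10 KRT5 counts.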

Additional observations from a re-analysis of the deposited data

Results flagged for a closer look

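The response of CTSW to afatinib differed with the presence of romidepsin by the test of the difference itself. The interaction was 1.11 on the log2 scale (SE 0.35, edgeR adjusted p = 0.0122). With romidepsin present, the 3 libraries with afatinib had 10.9, 9.17 and 9.55 CPM and those without it 4.38, 5.38 and 6.61 CPM. Without romidepsin, the libraries with afatinib had 1.57, 2.08 and 1.93 CPM and those with DMSO 3.25, 1.62 and 1.75 CPM. The value was 0.71 without DMSO replicate 1 (adjusted p = 0.174) and 0.71 without the 4 libraries holding KRT5 counts (adjusted p = 0.36), and over all 19 alternatives it stayed above 0.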

How the results depend on the processing

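Under 20 alternatives (19 for the interaction), no called value of a tested gene changed sign. PRF1, SRGN and CTSW kept every call over DMSO, with log2 ranges of -1.40 to -1.22 for PRF1, 0.91 to 1.07 for SRGN and 1.11 to 1.72 for CTSW with romidepsin, -1.35 to -1.12, 1.08 to 1.27 and 1.95 to 2.59 with the combination, and 0.39 to 0.56 for SRGN with afatinib. The number of the 5 genes called for the combination against romidepsin was 3, and 1 to 3 without 1 library, the lowest without romidepsin replicate 2. For the interaction it was 1, against 2 with DESeq2 size factors, 2 with library size only, 1 to 3 without 1 library and 0 without the libraries holding KRT5 counts, where 1 DMSO library is left and is assumed to vary like the other groups. With these scalings the added calls were NKG7 (adjusted p = 0.0444 with DESeq2 size factors) and SRGN (0.0498 with library size only). NKG7 with romidepsin was not called without the KRT5 libraries (-0.52, adjusted p = 0.102), and NKG7 with romidepsin against afatinib was called in 4 of 20 alternatives, with library size only (-0.49, adjusted p = 0.0243), without the KRT5 libraries (-0.50, adjusted p = 0.0447) and without romidepsin replicate 3 (0.0365) or afatinib replicate 3 (0.0381). Afatinib changed 4162 genes without the KRT5 libraries, against 7351, and with library size only 62.2% of its calls were higher, against 48.6%, with a median shift of up to 0.10. Among the lists, the surface genes called with the combination went up to 8 where 11 instead of 8 were tested, those with romidepsin to 9 without the filter, the inhibitors called with romidepsin were 3 without romidepsin replicate 1, and transport genes called with afatinib were 7 without the KRT5 libraries. The causes were not tested. Same replicate numbers did not pair the libraries (18 correlations of -0.0899 to 0.0894), and with the replicate block the calls were 4, 1 and 3 with romidepsin, afatinib and the combination over DMSO, 3 in each of the other comparisons and 1 for the interaction, as without it. Few counts limit the 5 rare genes.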

Other observations

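KLRD1, which encodes the CD94 receptor of NK cells and was below the filter, had 7, 15 and 11 counts in the romidepsin libraries, 0 in each afatinib library, 5, 5 and 4 in the combination libraries and 0 in each DMSO library. CD160, another receptor of cytotoxic lymphocytes, had 3 counts in each romidepsin library, 1, 4 and 5 with afatinib, 11, 9 and 14 with the combination and 0, 2 and 1 with DMSO. Both were picked after their values were seen and are given as counts only.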
